A study of Mus musculus with 2 samples.

Results

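The proteasome is the chamber in which cells break down proteins tagged with ubiquitin, and its genes were compared between unfertilised oocytes of MUL1 -/- mice and of MUL1 +/+ mice. Its genes were taken as every non-control probe whose gene symbol begins with Psm, one letter from a to g and a digit, which gave 94 probes and 49 symbols of 37074 on the array. One of the symbols, Psmc3ip, names a cofactor of meiotic recombination that is no part of the proteasome, and it is left out of the counts below, so that 48 proteasome genes remain. Both genotypes were on the C57BL/6 background, per the labels, which give neither the allele nor the age of the mice. MUL1 sits in the outer membrane of mitochondria, where it attaches ubiquitin or SUMO to other proteins, and by the labels it is lacking in the first group and intact in the second. One pool of 123 MUL1 -/- oocytes and one of 213 MUL1 +/+ oocytes were each measured on 1 Agilent single-colour array, from amplified Cy3-labelled RNA.

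In the barrel-shaped core particle, outer rings of alpha subunits control entry and inner rings of beta subunits hold the cutting sites. Interferon-responsive cells, above all those of the immune system, exchange the catalytic beta subunits Psmb6, Psmb7 and Psmb5 for Psmb9, Psmb10 and Psmb8, which makes the immunoproteasome and favours peptides that fit MHC class I molecules. A cap, the regulatory particle, sits on the core: its base contains a ring of ATPases that unfold substrates, and its lid holds the enzyme that removes ubiquitin. In oocytes the proteasome degrades cyclin B and securin at the meiotic divisions and, after fertilisation, maternal proteins.

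Differences are given as MUL1 -/- minus MUL1 +/+ in log2 units of the scanner signal, relative to the 75th percentile of the same array. With 1 array per genotype there is no replicate and no test, and fewer cells of a type and less RNA per cell cannot be told apart. The scanner software's own error comes to 0.20 for a difference at a bright probe, and probes of the same proteasome gene differed from each other with a pooled SD of 0.22. Smaller differences are therefore within the measurement error of this pair of arrays, and larger ones have not been set against the spread between animals. The probe for the RefSeq transcript of Mul1 read 1074 on the MUL1 -/- array and 3353 on the MUL1 +/+ array, a difference of -1.61. A second Mul1 probe, for an Ensembl transcript, was dim, with 23.1 on the MUL1 -/- array and 19.3 on the MUL1 +/+ array, a difference of 0.29. Of 12 oocyte markers 11 were well above background on both arrays, Figla being the exception, and their summed signals were 121671 on the MUL1 -/- array and 132381 on the MUL1 +/+ array. The median difference of these oocyte markers was 0.16, with 6 of 11 above 0, and Nlrp5 at 0.77 and Ooep at 0.94 were at least 1.5-fold higher, a size that 7.84% of all measured genes passed. Markers of other cells were on both arrays too. All 12 cumulus and granulosa markers were measured, and 1.5-fold was passed by 3 upwards and 1 downwards on the MUL1 -/- array, against 7.84% and 5.19% of all genes, with summed signals of 178144 on the MUL1 -/- array and 166143 on the MUL1 +/+ array, and myeloid markers are given beside the immunoproteasome.

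Of the 48 proteasome genes, 47 were measured, meaning that at least 1 probe was well above background on both arrays. Psmb11, the thymus-specific catalytic subunit, was not well above background on either, as its probe read 3.51 on the MUL1 -/- array and 6.57 on the MUL1 +/+ array. The median difference over the 47 genes was 0.10, against 0.03 over all 22921 measured genes. A difference above 0 was found for 36 of the 47 genes, where 54.8% of all measured genes were above 0, as were 53.1% in the signal range of the proteasome genes and 56.5% of the protein-coding genes. At least 1.5-fold higher signal on the MUL1 -/- array was found for 2 genes, or 4.26% of the 47, where 7.84% of all measured genes passed that size, as did 4.06% of the 14162 genes in that signal range and 7.92% of the 15308 protein-coding genes. No proteasome gene was at least 1.5-fold lower, against 5.19% of all genes, 3.81% in the signal range and 3.27% of protein-coding genes. The family as a whole was therefore not richer in sizeable differences than the rest of the array. Both genes that passed the size belong to the immunoproteasome, and all other measured genes lay between -0.32 and 0.42.

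**Figure D1:**
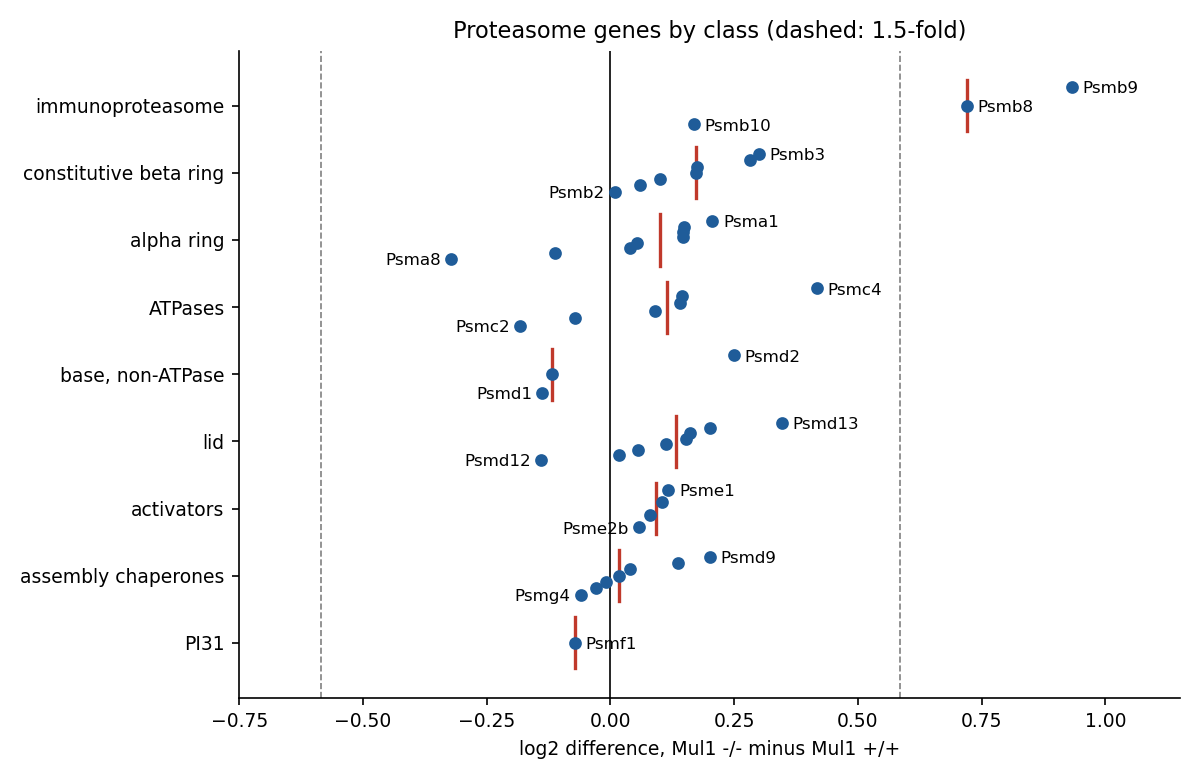
Log2 difference between the MUL1 -/- and MUL1 +/+ arrays (horizontal axis) for each of the 47 measured proteasome genes, in rows by class. Each point is a gene, the red bar is the median of the class and the dashed lines mark 1.5-fold. Psmb9 and Psmb8 lie beyond the upper dashed line, and Psmb10 lies at 0.17, within the range of the constitutive beta ring.

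Among the catalytic subunits of the immunoproteasome, Psmb8 and Psmb9 were higher on the MUL1 -/- array and Psmb10 lay with the rest of the core. Psmb8, the counterpart of the chymotrypsin-like subunit Psmb5, had a signal of 4158 on the MUL1 -/- array and 2580 on the MUL1 +/+ array, a difference of 0.72 or 1.65-fold. Psmb9, which takes the place of the caspase-like subunit Psmb6, had 1300 on the MUL1 -/- array and 697 on the MUL1 +/+ array, a difference of 0.93 or 1.91-fold. Both differences exceed the scanner error and the spread between probes, but each rests on 1 measured probe, since the other Psmb9 probe was not well above background on either array. Psmb10, the counterpart of the trypsin-like subunit Psmb7, read 6613 on the MUL1 -/- array and 6019 on the MUL1 +/+ array, a difference of 0.17.

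The constitutive counterparts differed less. Psmb5 read 16826 on the MUL1 -/- array and 14146 on the MUL1 +/+ array, a difference of 0.28. Psmb7 read 10545 on the MUL1 -/- array and 9572 on the MUL1 +/+ array, a difference of 0.17, and the probes of Psmb6 differed by 0.06 and 0.14. The difference of Psmb8 was 0.44 above that of Psmb5, and that of Psmb9 was 0.83 above that of Psmb6. Psmb10 and Psmb7 differed by -0.0039. The median of the immunoproteasome was 0.72 and that of the 15 genes of the constitutive core was 0.15, a gap of 0.58 that ran from 0.57 to 0.61 over the other settings of the processing. Scaling on the median or on spike-ins shifts all genes of an array alike, so these settings could not change the gap.

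**Figure D2:**
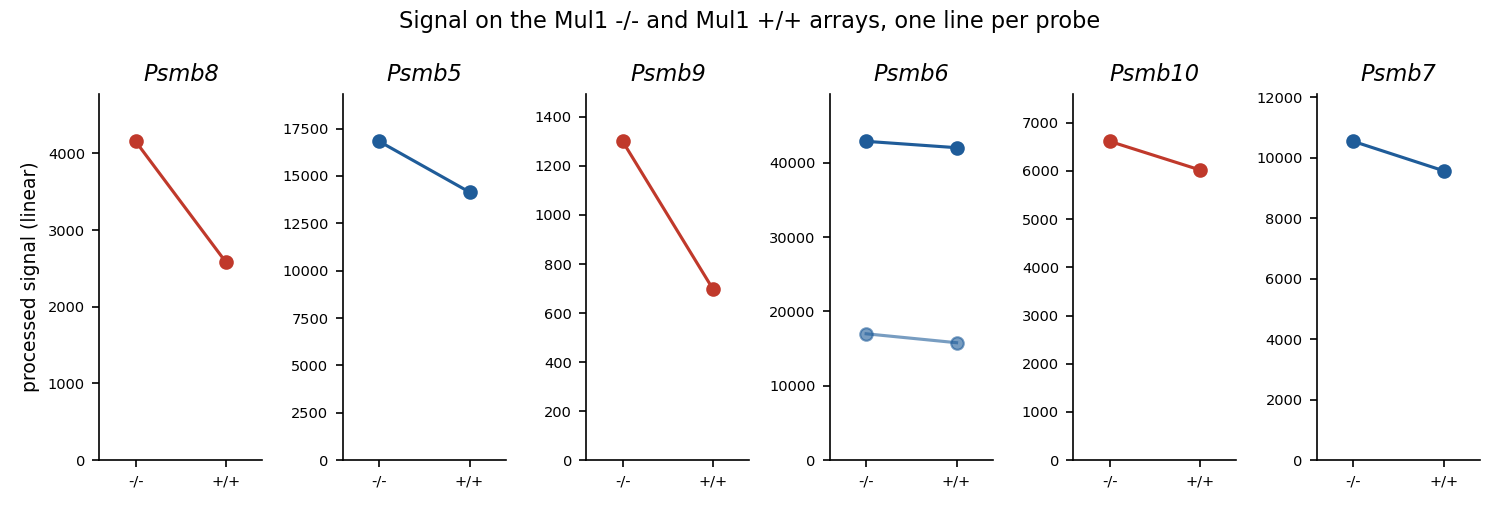
Processed signal, on linear axes that start at 0, of each immunoproteasome subunit (red) and its constitutive counterpart (blue) on the MUL1 -/- array (left point) and the MUL1 +/+ array (right point), with 1 line per measured probe. The lines of Psmb8 and Psmb9 fall steeply to the right and the other 4 panels show shallow lines. Axes differ between panels, and signals of different probes cannot be compared.

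The probes of these subunits are shown here because they carry the main difference, and the related genes Psmb8 and Psmb5 share much of their probe sequence. Capitals mark bases that are the same in both probes at their best ungapped alignment.
Psmb8 probe, chr17:34337771-34337830 of mm9, plus strand: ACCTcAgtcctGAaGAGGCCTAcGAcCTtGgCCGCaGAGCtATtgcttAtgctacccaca
Psmb5 probe, chr14:55233161-55233220 of mm9, minus strand: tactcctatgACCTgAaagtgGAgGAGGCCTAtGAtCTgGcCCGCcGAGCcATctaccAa
Psmb9 probe, chr17:34319174-34319233 of mm9, minus strand: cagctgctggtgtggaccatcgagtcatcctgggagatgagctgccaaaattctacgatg
Psmb10 probe, chr8:108459677-108459736 of mm9, minus strand: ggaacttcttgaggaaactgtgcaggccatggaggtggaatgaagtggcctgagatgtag
Over the 50 bases of overlap the Psmb8 and Psmb5 probes shared 31, or 62.0%. For Psmb9 against Psmb6 the best alignment had 21 of 54 bases in common (38.9%), and for Psmb10 against Psmb7 it had 23 of 56 (41.1%). Each probe printed here lies within 1 unbroken genomic stretch of 60 bases, and exon annotation of mm9 was not used here.

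Psmb8 and Psmb9 are neighbours in the MHC class II region of chromosome 17, where they alternate with the peptide transporter genes Tap1 and Tap2, and the probes for Psmb9 and Psmb8 are 18537 bases apart. Tap1 read 0.41 and 0.64 at its 2 probes, and Tap2 read 0.53 and 0.76. Besides these subunits, 5 genes were measured within 50000 bases of the probes, and 4 of them were at least 1.5-fold higher on the MUL1 -/- array, where 7.84% of all genes were. This window was chosen after the values of Psmb8 and Psmb9 were seen. Tap2 is one of the 4 and passed that size through its dim probe, with 47.8 on the MUL1 -/- array and 28.8 on the MUL1 +/+ array. As a gene it read 0.39 with normexp and 0.53 when the dim probe was dropped, both short of 1.5-fold. The class II genes in this window were H2-DMa at 0.64, H2-DMb1 at 1.32 and H2-Ob at 1.79. H2-Ob was dim, and 2 of its 3 probes were not well above background on both arrays.

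Genes that deliver or receive the peptides of the immunoproteasome were mixed. Over 11 genes of class I antigen processing the median difference was 0.19, with 8 above 0 and 2 at least 1.5-fold higher, against 7.84% of all genes. The 2 were Tap2 at 0.65, which did not hold that size in the settings named above, and Irf8, a transcription factor of myeloid and lymphoid cells, at 0.96. The 2 probes of Irf8 disagreed, at 0.46, short of 1.5-fold, and 1.46. Their averaged signals were 144 on the MUL1 -/- array and 75.7 on the MUL1 +/+ array. H2-D1, which encodes a class I heavy chain, read 0.51, whereas H2-K1 read 0.13 and the peptide-loading chaperone gene Tapbp read 0.09. Irf1, which encodes an interferon-activated transcription factor, read -0.28. B2m, the light chain of class I molecules, read 0.16 at its RefSeq probe and -0.48 at the other.

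Markers of myeloid cells were higher on the MUL1 -/- array too. All 17 measured of 18 listed markers were higher on the MUL1 -/- array, 15 of them at least 1.5-fold, where 7.84% of all genes were, with a median difference of 1.75 and summed signals of 97057 on the MUL1 -/- array and 44031 on the MUL1 +/+ array. Cx3cr1 was not well above background on both arrays, and the smallest differences were Cd14 at 0.15 and Itgam at 0.24. Of 8 lymphoid markers 4 were measured, with summed signals of 3030 on the MUL1 -/- array and 2238 on the MUL1 +/+ array, while Cd3g, Cd8a, Cd79a and Nkg7 were not well above background on both. The part of these cells in the signal of Psmb8 and Psmb9 was not tested.

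The promoters of the 2 neighbouring subunits are shown because both genes were higher on the MUL1 -/- array. They are windows of 300 bases around the start site from RefSeq, build GRCm38.p6, and capitals mark the core of a STAT site, TTCNNNGAA.
Psmb8 promoter, chr17:34197945-34198244, plus strand: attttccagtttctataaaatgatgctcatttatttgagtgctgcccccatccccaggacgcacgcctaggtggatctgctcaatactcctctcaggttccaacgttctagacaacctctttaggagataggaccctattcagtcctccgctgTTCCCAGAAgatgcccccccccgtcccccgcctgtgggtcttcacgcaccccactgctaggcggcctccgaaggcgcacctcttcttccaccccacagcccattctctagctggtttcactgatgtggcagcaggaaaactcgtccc
Psmb9 promoter, chr17:34187281-34187580, minus strand: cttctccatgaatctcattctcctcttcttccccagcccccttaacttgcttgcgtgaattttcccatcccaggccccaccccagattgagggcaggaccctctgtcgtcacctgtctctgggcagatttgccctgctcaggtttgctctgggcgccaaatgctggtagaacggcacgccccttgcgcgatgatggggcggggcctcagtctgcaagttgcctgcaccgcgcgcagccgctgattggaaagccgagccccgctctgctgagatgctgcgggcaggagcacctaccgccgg
Both strands were searched. The core TTCNNNGAA was found once in the Psmb8 window and not in those of Psmb9 and Psmb10, and 8.30% of all 32851 windows hold it. The core of the interferon-stimulated response element, searched as 2 copies of GAAA with 2 bases of any kind between them, was in none of these 3 windows and in 3.44% of all windows. Among proteasome genes, of which 40 had a window, the interferon core was found for 5, namely Psmb3, Psmd4, Psmd9, Psme1 and Psmg4, or 12.5% against 3.99% of 27025 genes. The core of the antioxidant response element, TGACNNNGC, through which the factor Nfe2l1 is known to drive proteasome genes when proteasome activity is short, was found for 6 of the 40, and for 3781 of 27025 genes. The CCAAT box was found for 14 of the 40, against 41.1% of all genes. The 6 genes with TGACNNNGC are Psmb5, Psmb6, Psmc6, Psmd9, Psmd12 and Psme4, whose differences ran from -0.14 to 0.28. The values below 0 were smaller than the scanner error of 0.20, and a link between this core and the differences was not tested. No match of one of these motifs overlapped a match of another in the 42 windows of proteasome genes, and a match is a description of the letters and not a site.

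The rest of the core particle differed by small amounts, mostly upwards. In the constitutive beta ring all 7 genes were above 0, with a median of 0.17, from Psmb2 at 0.01 to Psmb3 at 0.30. Psmb3, a structural subunit without a cutting site, read 32444 on the MUL1 -/- array and 26938 on the MUL1 +/+ array. In the alpha ring 6 of 8 genes were above 0, with a median of 0.10. Psma1 was highest at 0.21, with signals of 20075 on the MUL1 -/- array and 17800 on the MUL1 +/+ array, followed by Psma7 and Psma5 at 0.15 each. These sizes are near or below the scanner error of a single difference.

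Psma8, the alpha subunit of the germ-cell proteasome of the testis, was lowest of all at -0.32, and its probes disagreed. The probe at chr18:14920237-14920296 of mm9 read 51.9 on the MUL1 -/- array and 85.9 on the MUL1 +/+ array, a difference of -0.70, while the one at chr18:14920708-14920767 read 419 on the MUL1 -/- array and 414 on the MUL1 +/+ array, a difference of 0.05. With the brightest probe alone, or a stricter filter on dim probes, the difference of Psma8 was 0.05. Psma3 read -0.11, and its RefSeq probes read -0.03 and 0.03.

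The ATPases of the base spread over a wider range than the beta ring. Psmc4 was highest among all genes outside the immunoproteasome at 0.42, with both probes on the same side at 0.36 and 0.48. At the first of these the signals were 8274 on the MUL1 -/- array and 6614 on the MUL1 +/+ array. Psmc1 and Psmc3 read 0.14 each and Psmc5 read 0.09. Psmc2 at -0.18 and Psmc6 at -0.07 were below 0, and both hold a probe whose accession is not RefSeq's, which is taken up below. The median of the 6 ATPases was 0.11, and that of the 8 lid genes was 0.13. The gap between these medians was -0.017 and ran from -0.025 to 0.031 over the other settings, so no order of ATPases and lid was held.

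In the lid 7 of 8 genes were above 0. Psmd13 was highest at 0.35, with probes at 0.32 and 0.37 and signals at the first of 18921 on the MUL1 -/- array and 15488 on the MUL1 +/+ array. Psmd12 was lowest at -0.14, with 15842 on the MUL1 -/- array and 17852 on the MUL1 +/+ array at its single probe, and it stayed below 0 in all 11 other settings, at -0.0013 with spike-in scaling. Psmd14, the deubiquitinating enzyme of the lid, read 0.16, and its RefSeq probes read 0.12 and 0.34. The other lid genes, Psmd3, Psmd6, Psmd7, Psmd8 and Psmd11, lay between 0.02 and 0.20.

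Outside the ATPase ring, the base has the scaffold subunits Psmd1 and Psmd2 and the ubiquitin receptor Psmd4. Psmd2 read 0.25, with probes at 0.18 and 0.32. Psmd1 read -0.14 and Psmd4 -0.12. The median of this class was -0.12, the single class median below 0 apart from the lone gene Psmf1, and it was 0.14 when RefSeq probes alone were used. The direction of the base scaffold therefore depended on which probes were averaged.

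Activators, the inhibitor and assembly factors differed little. The activator subunit Psme1, induced by interferon in other cells, read 0.12 with 33510 on the MUL1 -/- array and 31602 on the MUL1 +/+ array, and thus did not share the difference of Psmb8 and Psmb9. Psme3 read 0.10, Psme4, the activator used in the testis for histone removal, read 0.08, and Psme2b read 0.06. With RefSeq probes alone Psme3 read 0.25, Psme4 read 0.19 and the activator median was 0.16, against 0.09 with all probes. Psme2b is a near-identical copy of Psme2, so its probes may read either gene, and Psme2 itself was not analysed here. The assembly chaperones Psmd5, Psmd9, Psmd10 and Psmg1 to Psmg4 had a median of 0.02 with 4 of 7 above 0, from Psmg4 at -0.06 to Psmd9 at 0.20. Psmf1, which encodes the proteasome regulator PI31, read -0.07, with both of its measured probes below 0.

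Probes of the same gene disagreed along a line that the class averages hide. Of the 86 probes measured for proteasome genes, 72 carry a RefSeq transcript accession in the file and 14 carry an Ensembl, GenBank or predicted one. The 72 had a median difference of 0.13 with 60 above 0, and the 14 had a median of -0.16 with 10 below 0. Averaged per gene over RefSeq probes alone, 57.8% of all genes were above 0. Shares over all single probes of each kind are not given here. Both kinds were present for 13 genes, and in 11 of them the mean of the other accessions was the lower one, with a median gap of -0.29. In each of the 13 genes the probes of other accessions were also dimmer than the RefSeq probes. Kind of accession and signal therefore cannot be told apart here. Across all genes with both kinds of probe the other accession was lower in 58.2% of 3483, with a median gap of -0.07. The proteasome genes thus followed the direction seen over the whole array.

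**Figure D3:**
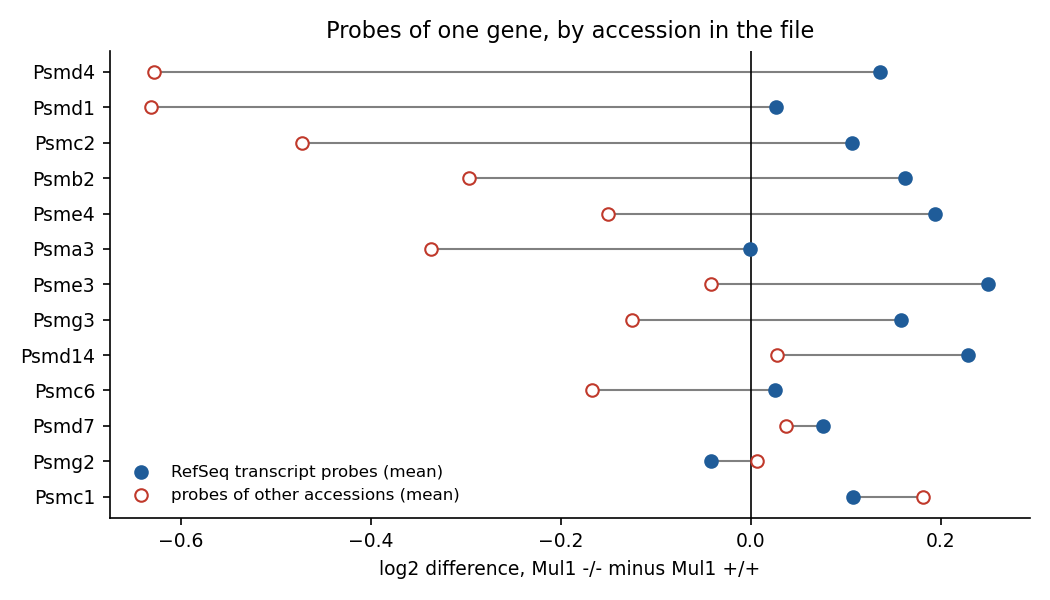
Log2 difference between the MUL1 -/- and MUL1 +/+ arrays (horizontal axis) for the 13 genes with probes of both kinds. Filled points are means over RefSeq transcript probes, open points are means over probes of other accessions, and a line joins them. The open point is the left one in 11 genes, with the widest gaps for Psmd4, Psmd1 and Psmc2.

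The widest gaps were those of Psmd4, Psmd1 and Psmc2, whose probes are shown with capitals on the polyadenylation hexamer AATAAA, which marks the end of many transcripts.
Psmd4 probe, NM_001282017, chr3:94836627-94836686 of mm9, minus strand: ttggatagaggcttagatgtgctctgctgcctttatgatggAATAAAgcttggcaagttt
Psmd4 probe, ENSMUST00000147960, chr3:94837208-94837267 of mm9, minus strand: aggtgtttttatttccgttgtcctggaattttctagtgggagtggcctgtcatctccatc
Psmd1 probe, NM_027357, chr1:88035777-88035836 of mm9, plus strand: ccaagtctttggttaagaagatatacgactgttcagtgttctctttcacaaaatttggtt
Psmd1 probe, ENSMUST00000189234, chr1:87964118-87964177 of mm9, plus strand: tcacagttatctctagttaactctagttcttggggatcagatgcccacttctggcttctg
Psmc2 probe, NM_011188, chr5:21309546-21309602 of mm9, plus strand: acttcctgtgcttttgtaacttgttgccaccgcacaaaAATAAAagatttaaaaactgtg
Psmc2 probe, ENSMUST00000132720, chr5:21303917-21303976 of mm9, plus strand: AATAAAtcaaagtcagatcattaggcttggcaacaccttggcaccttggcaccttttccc
The Ensembl probe of Psmd4 read 221 on the MUL1 -/- array and 350 on the MUL1 +/+ array, a difference of -0.63, and the RefSeq probe at the end of the gene read 38042 on the MUL1 -/- array and 36712 on the MUL1 +/+ array, a difference of 0.08. The Ensembl probe of Psmd1 read 104 on the MUL1 -/- array and 165 on the MUL1 +/+ array, a difference of -0.63, against -0.02 at the RefSeq probe above. For Psmc2 the values were -0.47 at the Ensembl probe, with 161 on the MUL1 -/- array and 228 on the MUL1 +/+ array, and 0.11 at the RefSeq probe. All 3 genes are below 0 as averages and above 0 by the mean of their RefSeq probes. With RefSeq probes alone the ATPases were all above 0, as were all but 1 of the 17 genes of the regulatory particle, the exception being Psmd12, and 40 of the 47 genes in total, where 57.8% of all genes were.

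Position along the transcript went with the size of the difference too. For 18 proteasome transcripts with at least 2 RefSeq probes that do not overlap, the most upstream probe had the higher difference in 15, with a median gap of 0.07. The share over all 4957 such transcripts was 58.1%, with a median gap of 0.04, and it was 59.1% over the 3857 whose 3′-most probe fell in the signal range of the proteasome genes. Among these 15, Psmd14 had the widest gap, with 0.34 upstream and 0.12 at the 3′-most probe, followed by Psmd6 with 0.20 and -0.0028 and Psmc3 with 0.22 and 0.03. The exceptions were Psma8, Psmd2 and Psme4. A polyadenylation hexamer, AATAAA or ATTAAA, was in 7 of the 18 3′-most probes and in 0 of the 18 upstream probes, against 14.4% of all measured probes. The 3′-most probe was also the one with the higher signal in 18 of 18 transcripts, so position and signal cannot be told apart. All gaps but those of Psmd14 and Psma8 are smaller than the scanner error of a single difference, 0.20. A gap is taken between 2 such differences, so its own error is larger, and the Psmd14 gap of 0.22 is not set apart from it.

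**Figure D4:**
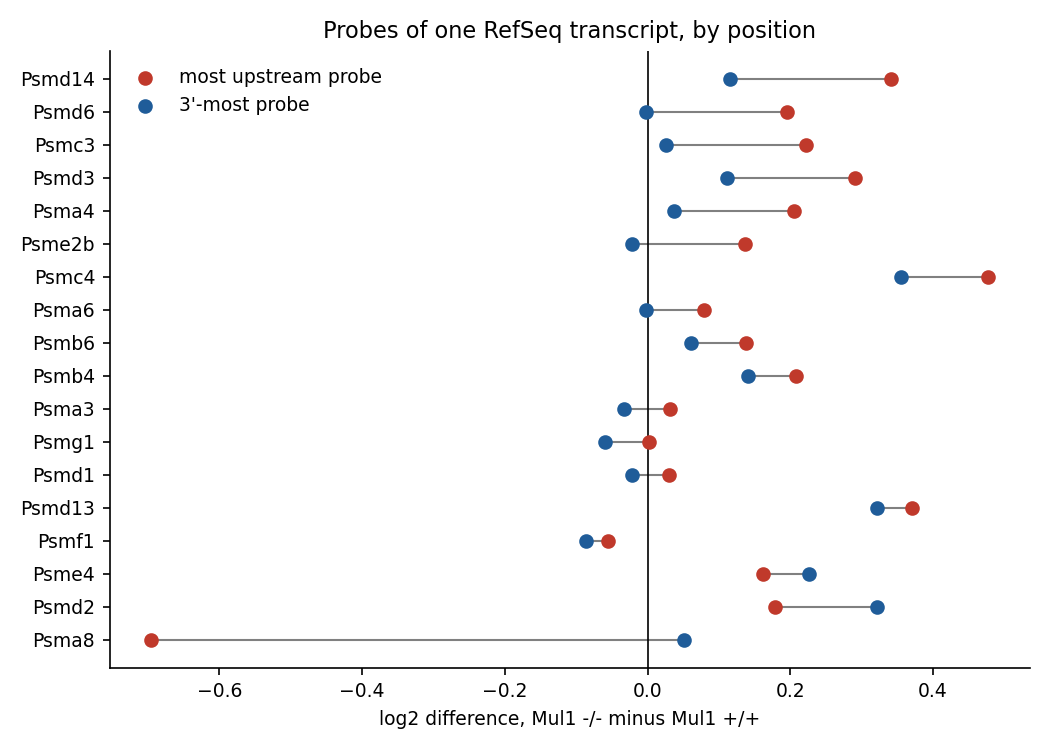
Log2 difference between the MUL1 -/- and MUL1 +/+ arrays (horizontal axis) at the most upstream (red) and the 3′-most (blue) probe of 18 proteasome transcripts. A line joins the probes of a transcript. The red point is the right one in 15 transcripts.

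Genes whose products work with the proteasome had a median below that of the proteasome genes. In a list of 30 genes for ubiquitin, the activating enzymes, shuttle receptors, the VCP segregase, associated proteins and transcriptional control, all were measured, the median was -0.08 and 9 were above 0, where 54.8% of all genes were. With spike-in scaling, which raised the median of all genes to 0.17, the median of the list was 0.06. On that scale 19 of the 30 were above 0, where 73.1% of all measured genes were. With RefSeq probes alone the median of the list was -0.05, with 12 above 0 and 18 below 0, where 57.8% of all genes were above 0. At least 1.5-fold lower on the MUL1 -/- array, with all probes, was 1 of the 30 genes, Nfe2l2, where 5.19% of all genes were. The value of Nfe2l2, -1.46, averages -0.02 at its RefSeq probe and -2.90 at the other. Ubb, a gene for polyubiquitin, read 0.01, with its probes on both sides of 0 at -0.05 and 0.06.

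Several of the lower values in this list again rested on probes of other accessions. Usp14, the deubiquitinase bound to the base, read -0.48 over 5 probes from -1.62 to 0.13, and 0.02 at RefSeq probes. The segregase gene Vcp read -0.15 over 4 probes and 0.22 at RefSeq probes, and the shuttle gene Rad23b read -0.41 and -0.05. Zfand5, a proteasome activator, read -0.45 over 5 probes from -1.01 to -0.0086, and -0.31 at RefSeq probes. The brightest probe of Zfand5 alone read -0.0086. Subunits and assembly factors outside the symbol rule lay with the proteasome genes, as Adrm1, the ubiquitin receptor of the base, read 0.13, the maturation factor gene Pomp read 0.12 and the lid gene Shfm1 read 0.04. Nfe2l1, the main known activator of proteasome genes, read -0.07.

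**Figure D5:**
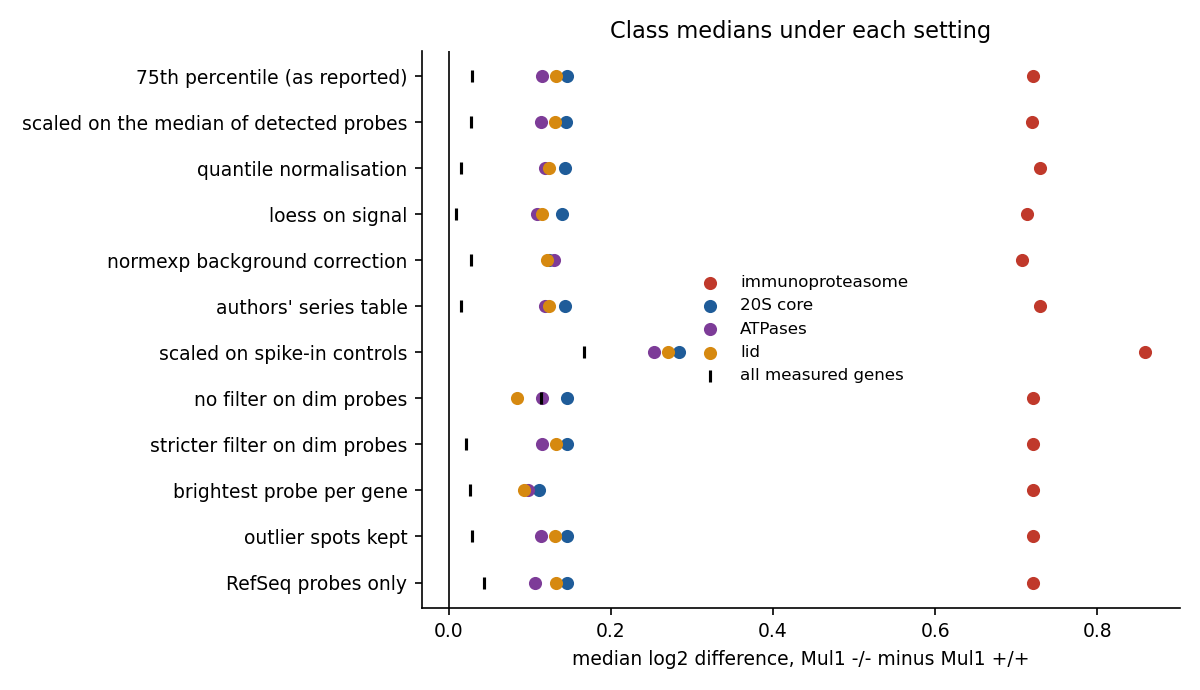
Median log2 difference between the MUL1 -/- and MUL1 +/+ arrays (horizontal axis) of the immunoproteasome, the constitutive core, the ATPases, the lid and all measured genes, in rows by processing setting. The immunoproteasome lies between 0.71 and 0.86 in all rows, apart from the other classes, and scaling on spike-in controls moves all points to the right.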

How the data were processed

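Spot intensity was deposited as linear scanner values, written by Agilent Feature Extraction 10.7.1.1 per the file headers (9.5.1.1 per the submitters' processing notes) for array design 074809 with probes placed on mm9. Per the file headers, the authors' processed intensity is background-subtracted and detrended within the array. The deposited series table of intensity is quantile normalised, judged from sorted columns that differ by at most 0.0243%.

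Spots flagged as outliers were left out, log2 intensity was averaged per probe, and each array's 75th percentile (signals of 790 on the MUL1 -/- and 808 on the MUL1 +/+ array) was subtracted. A gene is the mean of probes well above background on both arrays. The lowest such signals were 15.8 on the MUL1 -/- and 12.9 on the MUL1 +/+ array, and no proteasome probe was saturated. A single array per genotype allows no test. For 264 probes with at least 9 usable spots the difference had a median SD of 0.04 between spots. Scripts ran in Python 3.11.15 and limma 3.58.1, and the Python steps of scaling and averaging per gene were tested on simulated data. There, 100% of 200 genes changed 2-fold were called at 1.5-fold. The noise added was smaller than the scanner error of 0.20, so this checks the arithmetic and gives no detection rate for these arrays.

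Members, classes and lists were chosen with earlier results of these data known. Named are the immunoproteasome with its counterparts, the ATPases, up to 3 of the highest and lowest in each other class, genes at least 1.5-fold apart or above background on 1 array only, and the extremes of the associated lists; genes such as Irf1 or Pomp, and probes of 3 genes with wide gaps, were chosen after their values were seen. Alternatives were other scalings (median, quantile, loess with span 0.3, spike-ins), normexp with offset 50, the series table, other filters on dim probes (none, or a floor 4 times higher), only the brightest probe, outlier spots kept and, added after seeing the data, RefSeq probes alone and protein-coding genes as background. Some genes of the associated and marker lists are not reported here by name.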

Additional observations from a re-analysis of the deposited data

How the results depend on the processing

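Directions of the immunoproteasome, core, ATPase and lid medians, and Psmb8 and Psmb9 as the measured genes at least 1.5-fold higher, were the same in all 11 other settings, with Psmb8 from 0.71 to 0.86 and Psmb9 from 0.75 to 1.07. Without a filter on dim probes the count at least 1.5-fold apart was 3, through Psmb11, which is not above background. The non-ATPase base had a median of 0.14 with RefSeq probes alone, a choice made after seeing the data, 0.08 with the brightest probe and 0.0195 on the spike-in scale, against -0.12. Spike-in scaling raised the median of all genes to 0.17 and that of the proteasome genes to 0.24. On that scale 44 of 47 proteasome genes were above 0, where 73.1% of all measured genes were. Spike-in scaling shifts all genes alike, so the gap of 0.07 between the medians of 0.17 and 0.24 could not change. That gap ran from -0.0191, without a filter on dim probes, to 0.09. Of 47 genes, 17 changed sign under some setting. Of 517 gene values under other settings, 511 moved by less than the SD between probes and 6 by more, with no called value reversed. No paired analysis was possible because each genotype has 1 array, and no replicate could be left out. Keeping dim probes moved Psmd3 to -0.42, against 0.20, through a probe not above background, and dropping them moved Psma8 to 0.05, against -0.32. The number of arrays limits every value.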

Other observations

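Psmc3ip, which matches the symbol rule but encodes a partner of the recombinases of meiosis, was higher on the MUL1 -/- array by 0.44, with probes at 0.37 and 0.51. At the probe with the smaller difference the signals were 532 on the MUL1 -/- array and 421 on the MUL1 +/+ array, and at the other 187 on the MUL1 -/- array and 134 on the MUL1 +/+ array. It did not reach 1.5-fold.

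Of the 94 probes for these symbols 1 was well above background on a single array. It is a probe of Psme4 for the GenBank entry AK164827, which read 11.7 on the MUL1 -/- array and 19.3 on the MUL1 +/+ array. A further 5 probes were not well above background on either array.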
